A study of Mus musculus with 9 samples.

Results

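The formyl peptide receptors Fpr1 and Fpr2, the medium-chain fatty acid receptor Gpr84, the anaphylatoxin receptors C3ar1 and C5ar1 and the platelet-activating factor receptor Ptafr were examined in LPS-stimulated mouse macrophages. The 6 genes were chosen by symbol as receptors of chemoattractants and related ligands, and every probe set that the platform annotation gives for them was taken. This gave 7 probe sets for 5 of the 6 genes, out of 12394 genes with a named probe set. No listed probe set carried Fpr1, which was not analysed here. The choice drew on their unstimulated levels and their LPS inductions on these same arrays, so their values are given as a description, with no test.

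The macrophages were elicited in the mouse peritoneum with thioglycollate, an irritant broth. They came from mice labelled MyD88 KO, from mice labelled TRIF KO and from wild-type mice. The design asks how macrophages that lack either adaptor respond to lipopolysaccharide (LPS), a component of the bacterial outer membrane. Each genotype was left unstimulated (0 h) or kept with LPS at 100 ng/ml for 1 or 4 h, with 1 array for each of the 9 groups. The mutant alleles, the strain background, the sex and age of the mice and whether mice were pooled were not given in the sources used here. There were no replicate arrays, so a difference between 2 arrays has no replicate check, and their number limits the precision of every value.

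All 6 genes encode membrane-spanning receptors coupled to G proteins, mainly of the Gi class, which guide and activate phagocytes. FPR1 and FPR2 bind peptides that start with a formylated methionine, as bacteria and mitochondria make them. C3AR1 and C5AR1 bind C3a and C5a, the small fragments released when complement is cleaved, and PTAFR binds a lipid mediator, platelet-activating factor. GPR84 is activated by medium-chain fatty acids and is known as an LPS-inducible receptor of macrophages. MyD88 and TRIF are the adaptors through which Toll-like receptor 4 passes on the LPS signal, MyD88 also serving most other Toll-like receptors and the interleukin 1 receptor.

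Upstream sequences are shown for the 2 receptor genes that were at least 2-fold higher at 4 h of LPS and for C3ar1, which was lower. Each is the 250 bases before the RefSeq gene start on build GRCm38.p6, read 5′ to 3′ on the strand of the gene, with motif matches in capitals. Gpr84 lies on the minus strand of chromosome 15 and its sequence spans chr15:103310439-103310688. Fpr2 lies on the plus strand of chromosome 17 (chr17:17887574-17887823), and C3ar1 on the minus strand of chromosome 6 (chr6:122856158-122856407).
Gpr84: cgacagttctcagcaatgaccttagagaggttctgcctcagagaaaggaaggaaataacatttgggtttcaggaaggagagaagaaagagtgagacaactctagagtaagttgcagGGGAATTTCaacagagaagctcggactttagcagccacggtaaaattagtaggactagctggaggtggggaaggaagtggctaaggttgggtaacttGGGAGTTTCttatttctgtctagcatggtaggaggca
Fpr2: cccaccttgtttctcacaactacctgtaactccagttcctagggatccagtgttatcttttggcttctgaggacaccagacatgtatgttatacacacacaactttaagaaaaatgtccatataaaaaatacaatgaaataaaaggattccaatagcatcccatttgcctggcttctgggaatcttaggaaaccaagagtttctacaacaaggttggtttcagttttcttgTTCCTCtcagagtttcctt
C3ar1: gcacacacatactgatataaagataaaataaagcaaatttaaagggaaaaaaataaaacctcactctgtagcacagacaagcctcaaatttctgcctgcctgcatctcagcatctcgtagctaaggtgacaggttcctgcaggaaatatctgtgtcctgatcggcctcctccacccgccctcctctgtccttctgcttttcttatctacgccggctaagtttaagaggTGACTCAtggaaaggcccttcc

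The capitals in Gpr84 are both matches to GGGANNTTC, an NF-kB-like string, which started 134 and 37 bases before the gene start. This string was found in 3.23% of 32851 promoters of the same length. The capitals in Fpr2 match GAGGAA, the core bound by PU.1, on the opposite strand, a string found in 23.3% of promoters. The capitals in C3ar1 match TGANTCA, the AP-1 site, which reads the same on both strands and was found in 6.75% of promoters. Also searched on both strands were the NF-kB consensus (3.90% of promoters), the C/EBP-like string TTGCNNAA (9.56%) and the core of the interferon-stimulated response element (2.98%). None of these was found in these 3 sequences, no matches overlapped, and a match is a string of letters and not evidence of binding. In the same window Ptafr held 1 match to GAGGAA, from 242 to 237 bases before its start, and Fpr1 and C5ar1 held no match.

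Differences of 2-fold were read against the whole array. The values are log2 expression made with RMA, which corrects background, equalises the arrays and combines the probes into 1 value per probe set, so a difference of 1 is 2-fold. A gene was represented by its probe set with the highest mean, and 10032 genes reached log2 = 6 on at least 1 array. Between the unstimulated arrays, the difference from wild type was under 0.40 for 95% of these genes in MyD88 KO and under 0.28 in TRIF KO. For 99% of genes the limits were 0.66 and 0.47. Centring each array on 12 reference transcripts moved any value of these receptors in the text by at most 0.08, except MyD88 KO against wild type at 1 h, which it lowered by 0.11. All 11 measured macrophage markers (of 12 listed) passed log2 = 6 on every array, and Lyz2, Csf1r and Cd68 lay between 13.20 and 14.53. Others moved with genotype or LPS. The scavenger receptor gene Marco read 8.25, 8.36 and 8.55 at 0, 1 and 4 h in MyD88 KO cells. It read 9.29, 9.39 and 9.94 in TRIF KO and 9.52, 9.33 and 9.86 in wild type, and so was lowest in MyD88 KO, as Fpr2 and Gpr84 were. Mrc1 ranged over 10.15 to 10.30 in MyD88 KO, 9.88 to 10.12 in TRIF KO and 9.37 to 9.64 in wild type, and Mertk was lower at 4 h than at 0 h in all 3 genotypes. The targeted gene Myd88 read 9.30, 9.19 and 9.34 at 0, 1 and 4 h in MyD88 KO, against 9.57, 9.58 and 10.002 in wild type. The labels do not say where the deletion lies relative to this probe set, so it does not check them. No listed probe set carried Ticam1, the gene of TRIF.

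Fpr2 and Gpr84 were the receptors induced at least 2-fold by LPS, in all 3 genotypes, and both stood lower without MyD88 before any LPS was added. C3ar1 was lower at 4 h, C5ar1 moved little with LPS and was higher in TRIF KO at every time, and Ptafr stayed between 6.83 and 7.28 on all arrays. At 4 h against 0 h, 2 of the 5 genes were at least 2-fold higher in each of MyD88 KO, TRIF KO and wild type, where 0.429%, 0.409% and 1.23% of all genes were. The median of the 5 genes was 0.05, 0.36 and 0.31, beside -0.04, -0.02 and 0.01 over all genes. At 1 h none of the 5 was 2-fold different from 0 h in any genotype, where 0.0698%, 0.14% and 0.239% of all genes were higher. Because these same contrasts had been used to choose the genes, nothing is read from these counts.

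**Figure D1:**
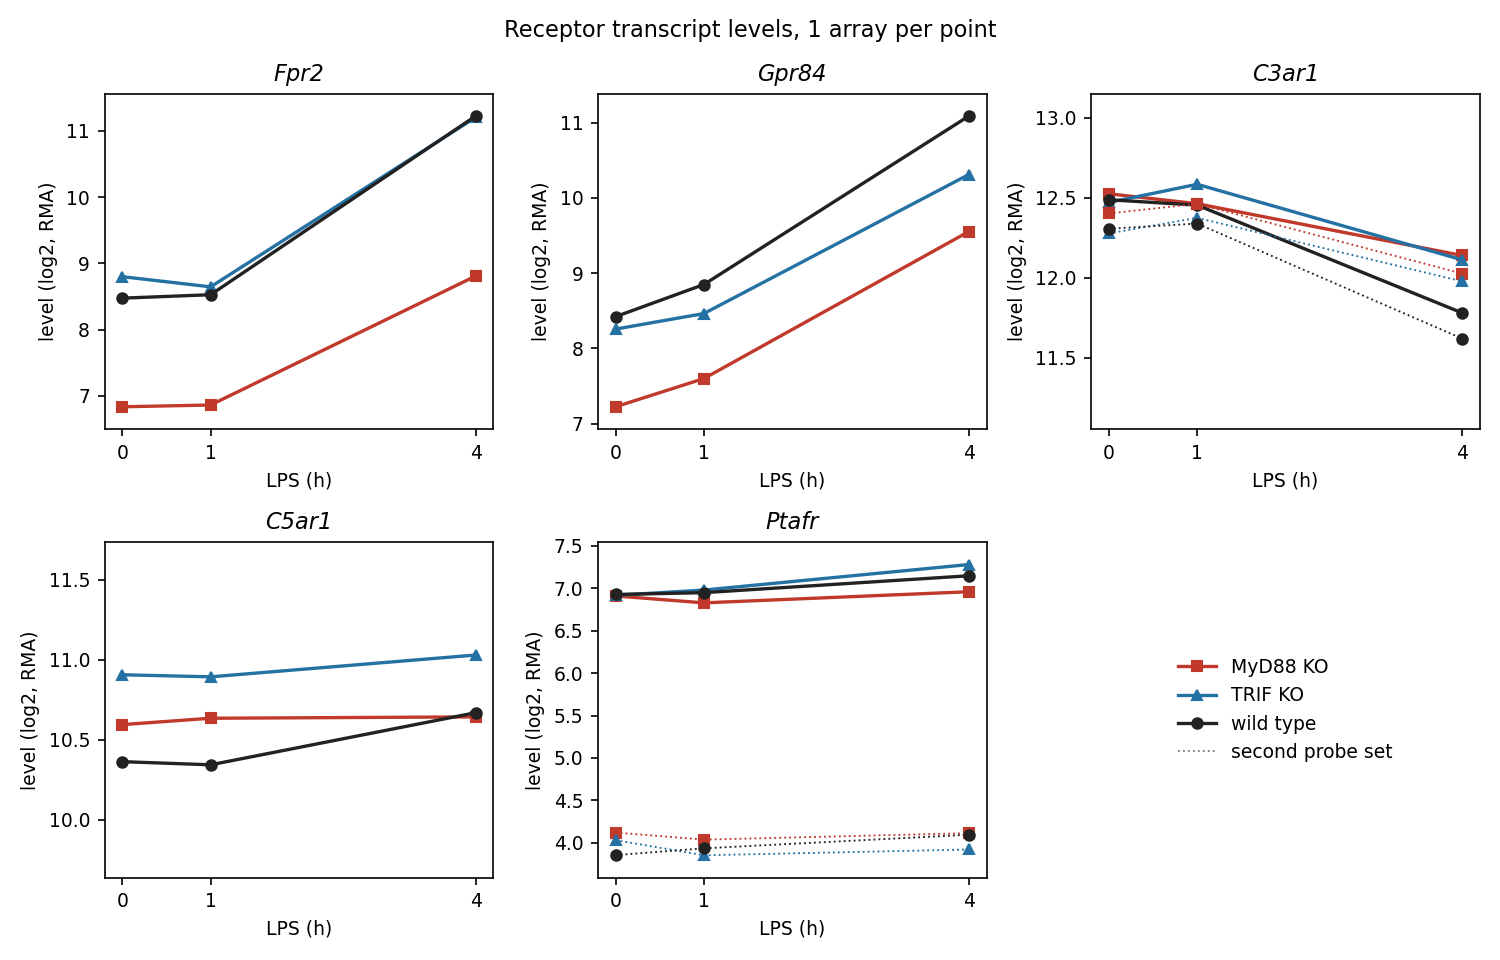
Level (log2, RMA) of each receptor transcript against hours of LPS, 1 array per point, for MyD88 KO (red squares), TRIF KO (blue triangles) and wild type (black circles). Dotted lines are second probe sets of C3ar1 and Ptafr. Fpr2 and Gpr84 climb between 1 and 4 h in every genotype with the MyD88 KO line below the others, C3ar1 drops, and C5ar1 is highest in TRIF KO.

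Fpr2, the formyl peptide receptor that in mice responds to bacterial and host peptides, read 6.84, 6.86 and 8.81 (log2) at 0, 1 and 4 h in MyD88 KO. It read 8.80, 8.65 and 11.20 in TRIF KO and 8.48, 8.53 and 11.22 in wild type. The MyD88 KO level after 4 h of LPS was thus within 0.01 of that of unstimulated TRIF KO cells and 0.33 above that of unstimulated wild-type cells. In descending order, wild type and TRIF KO at 4 h were 0.02 apart and 2.39 above the next array. Next came 5 arrays, MyD88 KO at 4 h and TRIF KO and wild type at 0 and 1 h, with gaps smaller than 0.23, the residual SD of the gene around an additive fit of genotype and time. The unstimulated and 1 h arrays of MyD88 KO came last, 1.61 below these 5 and 0.03 apart.

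Nearly all of the Fpr2 induction fell between 1 and 4 h. Induction is the log2 level with LPS less the 0 h level of the same genotype. At 1 h it was 0.03 in MyD88 KO, -0.15 in TRIF KO and 0.05 in wild type. At 4 h it was 1.97, 2.40 and 2.75, which are 3.93-fold, 5.29-fold and 6.72-fold, with a mean of 2.38 ± 0.39 (SD, n = 3 genotypes). From 1 h to 4 h Fpr2 was the gene with the largest increase of all 10032 in TRIF KO, had rank 3 in wild type and rank 8 in MyD88 KO.

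Gpr84 read 7.22, 7.60 and 9.55 at 0, 1 and 4 h in MyD88 KO cells. The TRIF KO values were 8.26, 8.46 and 10.31, and those of wild type 8.42, 8.85 and 11.09. Unlike Fpr2 it was already somewhat higher at 1 h, by 0.38, 0.21 and 0.43. At 4 h the induction was 2.33 in MyD88 KO, 2.05 in TRIF KO and 2.66 in wild type, or 5.02-fold, 4.15-fold and 6.34-fold, with a mean of 2.35 ± 0.31 (SD, n = 3 genotypes). The 4 h levels were separated, MyD88 KO standing at -0.76 against TRIF KO and TRIF KO at -0.78 against wild type, with a residual SD of 0.16. Lower in the order, only wild type at 0 h and TRIF KO at 1 h were closer than that SD, at 0.04. The gap between wild type and TRIF KO at 0 h, 0.17, was barely above it. The SD is of single arrays, and a difference of 2 arrays spreads wider. Of the 123 genes at least 2-fold higher at 4 h in wild type, Fpr2 and Gpr84 were among 23 that were so in all 3 genotypes. Each of these inductions rests on its own unstimulated array.

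**Figure D2:**
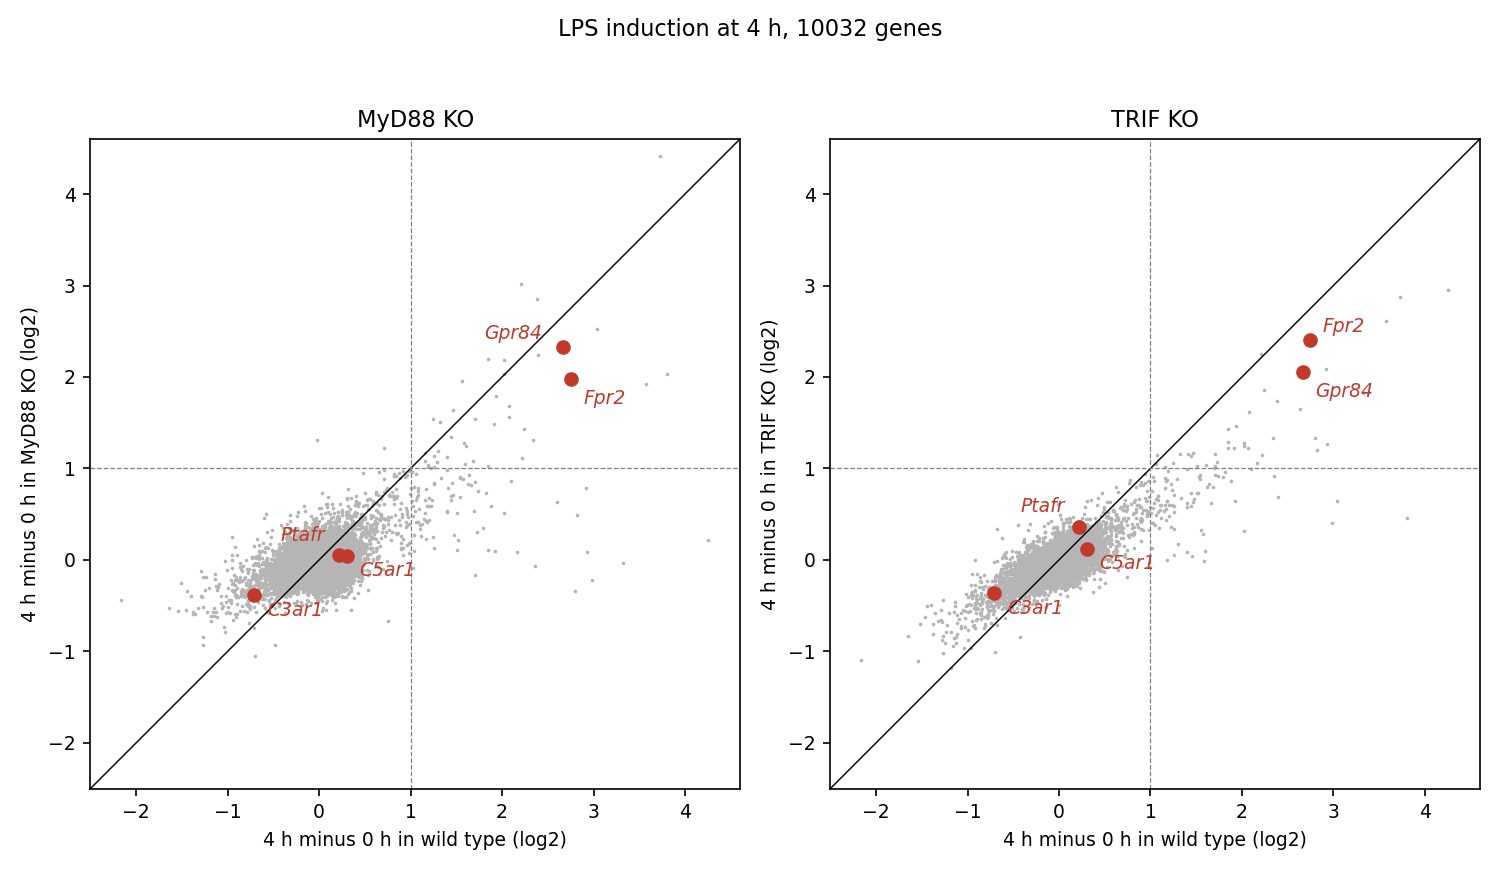
Induction at 4 h of LPS (log2, 4 h minus 0 h of the same genotype) of 10032 genes, MyD88 KO (left) or TRIF KO (right) on the vertical axis and wild type on the horizontal. Grey points are genes, red points the receptors, the solid line marks equal induction and dashed lines 2-fold. Fpr2 and Gpr84 lie above 2-fold on both axes and below the line, with 1.97 and 2.33 in MyD88 KO and 2.40 and 2.05 in TRIF KO, and C3ar1 lies below 0 on both axes.

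Without MyD88 the difference in level of Fpr2 and Gpr84 was present before stimulation and made up most of the difference at 4 h. In unstimulated cells, MyD88 KO stood at -1.64 for Fpr2 and at -1.20 for Gpr84 against wild type, which is 3.12-fold and 2.29-fold lower. Among all genes these were ranks 3 and 11 from the lowest, and 0.169% of genes were at least 2-fold lower in this comparison. At 4 h the level of Fpr2 was 5.33-fold lower (-2.42). Of this log2 difference 67.9% was already there at 0 h, and the remaining -0.78 was a smaller induction. These values rest on unstimulated MyD88 KO cells, where Fpr2 read 6.84, just below the array medians of 7.01 to 7.07, and whether low signal compresses them was not tested. Gpr84 at 4 h was 2.90-fold lower (-1.53), with 78.1% of the log2 difference there at 0 h and -0.34 from the induction. For both genes the terms of this split share the unstimulated arrays, with opposite signs. An error in one of those arrays would thus move share from one term to the other, and the same holds for TRIF KO. At 1 h the differences were -1.66 and -1.25. Over the 3 times MyD88 KO minus wild type averaged -1.91 ± 0.44 for Fpr2 and -1.33 ± 0.18 for Gpr84 (SD, n = 3 times), lower at 3 of 3 times. At each time 2 of the 5 receptors were at least 2-fold lower, where 0.239% of all genes were at 1 h and 0.558% at 4 h. The SD over the 3 times includes the change with LPS and is not a spread of replicates. The labels do not say whether the arrays are from different mice, so the rest of it may be technical.

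In TRIF KO, Fpr2 stood at 0.32, 0.12 and -0.02 against wild type at 0, 1 and 4 h. Its 4 h difference joins 0.32 at 0 h with a difference of the inductions of -0.34. Gpr84 stood at -0.17, -0.39 and -0.78, and here -0.61 of the 4 h difference was a smaller induction. None of the 5 receptors was 2-fold lower in TRIF KO at 0, 1 or 4 h, where 0.0698%, 0.0797% and 0.349% of all genes were. With the knockouts set against each other, MyD88 KO minus TRIF KO was -1.96, -1.78 and -2.39 for Fpr2 at 0, 1 and 4 h, and -1.03, -0.86 and -0.76 for Gpr84. At least 2-fold lower here were 2, 1 and 1 of the 5 receptors, beside 0.169%, 0.14% and 0.179% of all genes. The wild-type arrays serve both knockouts, so their differences from wild type are not independent of each other, and the difference between genotypes was not tested.

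**Figure D3:**
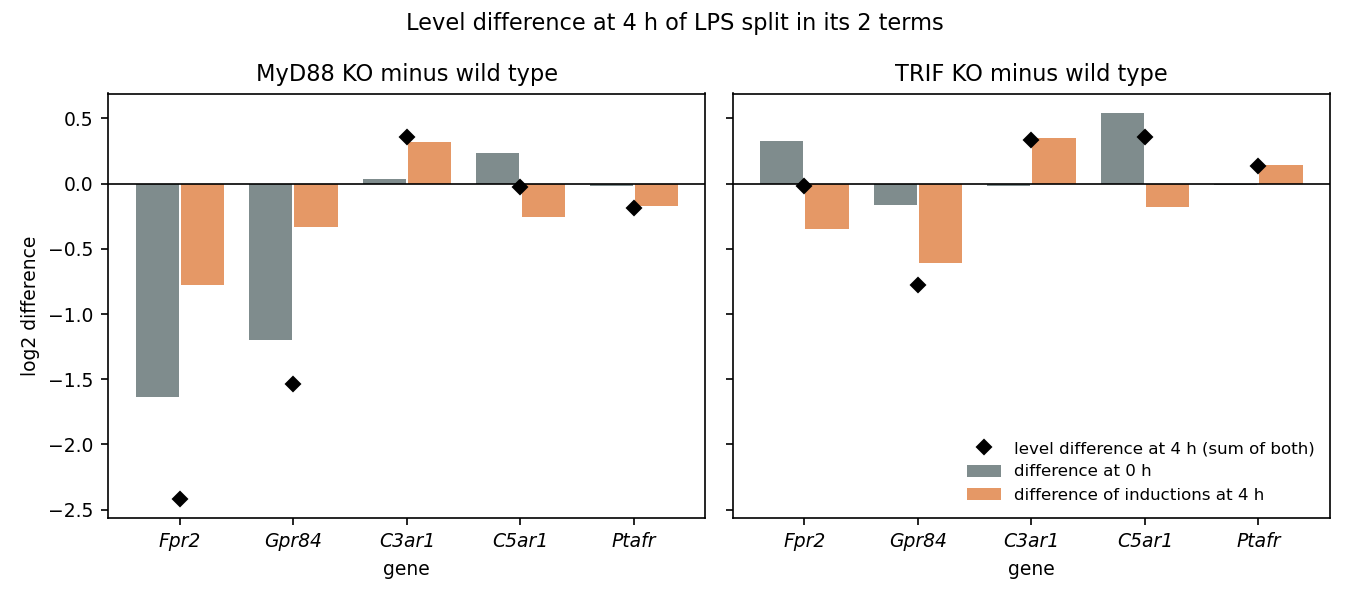
Log2 level difference at 4 h of LPS (black diamonds) for MyD88 KO minus wild type (left) and TRIF KO minus wild type (right), split into the difference at 0 h (grey bars) and the difference of the inductions (orange bars), 1 array per group. The grey bars of Fpr2 and Gpr84 in MyD88 KO, at -1.64 and -1.20, are longer than the orange ones, at -0.78 and -0.34, while in TRIF KO the Gpr84 difference is mostly orange.

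C3ar1, the receptor of C3a, was abundant and lower at 4 h in every genotype. It read 12.53, 12.46 and 12.14 at 0, 1 and 4 h in MyD88 KO cells. The TRIF KO values were 12.47, 12.58 and 12.11, and those of wild type 12.49, 12.45 and 11.78. The 6 arrays at 0 and 1 h lay within 0.13 of each other with no gap above the residual SD of 0.11, and the 3 arrays at 4 h lay below all of them. The difference at 4 h was -0.39, -0.36 and -0.71, with a mean of -0.48 ± 0.19 (SD, n = 3 genotypes). A second probe set gave -0.38, -0.30 and -0.69. The unstimulated levels of the genotypes were within 0.05 of each other, so the higher 4 h level in both knockouts, by 0.36 in MyD88 KO and 0.33 in TRIF KO, came with inductions that differed by 0.32 and 0.35.

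C5ar1, the receptor of C5a, was highest in TRIF KO at every time. It read 10.60, 10.64 and 10.64 at 0, 1 and 4 h in MyD88 KO cells. The TRIF KO values were 10.91, 10.89 and 11.03, and those of wild type 10.36, 10.34 and 10.67. All 3 TRIF KO arrays were above the other 6. Against wild type, TRIF KO was higher by 0.54, 0.55 and 0.36, a mean of 0.48 ± 0.11 (SD, n = 3 times), and at 0 h this was rank 35 from the highest of 10032 genes. MyD88 KO was higher by 0.23 and 0.29 at 0 and 1 h and stood at -0.03 at 4 h. The induction of C5ar1 at 4 h was 0.05 in MyD88 KO, 0.12 in TRIF KO and 0.31 in wild type, and the wild-type level at 4 h was within 0.03 of that of MyD88 KO. In the additive description the residual SD was 0.09, so the wild-type and TRIF KO steps at 4 h exceeded it and the MyD88 KO step did not.

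Ptafr was measured near the array medians of 7.01 to 7.07, and its probe sets disagreed. The brighter probe set read 6.91, 6.83 and 6.96 at 0, 1 and 4 h in MyD88 KO cells. The TRIF KO values were 6.92, 6.98 and 7.28, and those of wild type 6.93, 6.95 and 7.15. Its 3 unstimulated arrays were within 0.02 of each other. The induction at 4 h was 0.05, 0.36 and 0.22, against a residual SD of 0.08. The second probe set lay between 3.85 and 4.12 on all 9 arrays, below the filter on low values, and gave -0.01, -0.11 and 0.24. No direction is given for Ptafr on this basis.

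The genes whose pattern over the 9 arrays was most like that of each receptor were taken by Pearson correlation among 365 genes with a range of at least 1 (log2). All arrays share 3 genotypes and 3 times, so such values describe the pattern only. For Fpr2 they were Ccdc50, the metal ion transporter Slc11a2 and the chemokine Cxcl16, with r of 0.98 each. Cxcl16 stood at -1.12 in unstimulated MyD88 KO against wild type and was induced at 4 h by 0.97 in MyD88 KO, 0.82 in TRIF KO and 0.92 in wild type. For Gpr84 they were the adhesion molecule Icam1, the lysosomal phosphatase Acp2 and the thioredoxin reductase Txnrd1, with r of 0.99 each. Icam1 was induced by 2.32, 1.65 and 2.64 in MyD88 KO, TRIF KO and wild type, beside 2.33, 2.05 and 2.66 for Gpr84, and started at -0.98 in MyD88 KO. The genes most like C3ar1 were Rell1, Bbip1 and the sialyltransferase St6gal1, with r of 0.99, 0.98 and 0.98, all lower at 4 h in every genotype. For C5ar1 they were Gdf3, the integrin Itgax and the apolipoprotein Apoc2, with r of 0.87, 0.81 and 0.80. For Ptafr they were Adgre4, the endothelin receptor Ednrb and the transcription factor Cebpd, with r of 0.93, 0.92 and 0.92. Between the receptors themselves, Fpr2 and Gpr84 had r of 0.94, Fpr2 and Ptafr 0.92, Gpr84 and C3ar1 -0.91, and Gpr84 and Ptafr 0.84. The other pairs were smaller in size.

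Genes that make or remove the ligands, related receptors and the signalling machinery were examined through lists. These were tested with limma in an additive fit of genotype and time to all 9 arrays, in which genotypes serve as replicates of a time and times as replicates of a genotype, with Benjamini-Hochberg adjustment over 10032 genes. The SE and p-values of this fit thus measure how evenly a difference recurs over the times or the genotypes. They do not measure a spread between mice or between replicate arrays, of which there were none. At 4 h 4.62% of genes rose and 7.13% fell, and at 1 h 0.289% rose. Averaged over the times, 4.56% were higher and 2.68% lower in MyD88 KO, and 1.18% and 0.419% in TRIF KO. The MyD88 KO split of 457 higher and 269 lower genes became 224 and 379 after centring on the reference transcripts, and the 4 h split of 463 and 715 became 501 and 468.

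Formyl peptide receptor paralogs and ligands were nearly flat over LPS. The paralog Fpr-rs3 lay between 6.09 and 6.28 on all arrays, and how far the Fpr2 probes also bind transcripts of close relatives was not tested. Of the 5 genes tested, none was called at 4 h by limma, also at an unadjusted p under 0.05, and their median was 0.03 beside -0.02 over all genes. Anxa1, whose product annexin A1 acts through formyl peptide receptors, was at -0.01 in MyD88 KO, -0.16 in TRIF KO and -0.18 in wild type. Camp, the gene of the cathelicidin peptide, was at -0.05, 0.01 and 0.49. Saa3, an acute phase protein, was lower in MyD88 KO, at -0.34 on average over the times (adjusted p = 0.0123 by limma with Benjamini-Hochberg correction, 3 of 3 times lower), a call lost without the 4 h array of MyD88 KO or of wild type.

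Of 14 complement components and proteases tested, 1 rose at 4 h and none fell, with 1 and 0 at an unadjusted p under 0.05 (limma), and the median was 0.02. The gene that rose was Cfb, the factor B of the alternative pathway, by 0.54 ± 0.12 (SE; adjusted p = 0.00970 by limma with Benjamini-Hochberg correction, 3 of 3 genotypes higher). Its 4 h difference was 0.16 in MyD88 KO, 0.48 in TRIF KO and 0.96 in wild type, and the call was lost without the unstimulated or the 4 h array of wild type. C6 and Masp2 were at 0.04 and -0.07 in MyD88 KO, at 0.09 and 0.11 in TRIF KO and at 0.18 each in wild type, and were not called. Masp2 passed log2 = 6 only on the wild-type 4 h array, at 6.05, so its wild-type difference is not read further. C1ra was at 0.16 in MyD88 KO, -0.0041 in TRIF KO and 0.24 in wild type.

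Of 12 complement regulators and other complement receptors, 1 fell at 4 h. This was Cd93, by 0.37 (adjusted p = 0.0280 by limma with Benjamini-Hochberg correction, 3 of 3 genotypes lower), a call lost after centring and without any of 5 arrays, the 3 of TRIF KO and those of wild type at 0 and 4 h. Itgax, the alpha chain of complement receptor 4, differed by genotype: it was higher by 1.09 ± 0.07 in MyD88 KO (SE; adjusted p = 2.93e-06 by limma with Benjamini-Hochberg correction, 3 of 3 times higher) and by 1.28 ± 0.07 in TRIF KO (adjusted p = 3.07e-07, higher at 3 of 3 times). Cfi and Clu were at 0.19 and 0.10 at 4 h in MyD88 KO, at 0.03 and 0.22 in TRIF KO and at 0.46 and 0.22 in wild type. The list median at 4 h was -0.0035.

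Among 8 genes of platelet-activating factor synthesis and breakdown, 2 rose and 1 fell at 4 h, with a median of 0.0025. Pla2g7, the plasma-type hydrolase that inactivates the mediator, rose by 0.37 ± 0.08 (SE; adjusted p = 0.00822 by limma with Benjamini-Hochberg correction, 3 of 3 genotypes higher) and was lower in MyD88 KO, at -0.40 (adjusted p = 0.00857, lower at 3 of 3 times). Pla2g4a, the cytosolic phospholipase that releases its precursor, rose by 0.42 (adjusted p = 0.00877 by limma with Benjamini-Hochberg correction, 3 of 3 genotypes higher). Pafah1b3 fell by 0.30 (adjusted p = 0.0160 by limma with Benjamini-Hochberg correction, 3 of 3 genotypes lower). The last 2 calls were each lost without the 4 h array of wild type, as well as without the unstimulated array of TRIF KO for Pla2g4a, and without the 4 h array of MyD88 KO or the unstimulated array of wild type for Pafah1b3.

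Of 6 fatty acid and metabolite receptors, 1 rose and 2 fell at 4 h, with a median of -0.04. Hcar2, the receptor of nicotinic acid and ketone bodies, rose by 0.92 ± 0.15 (SE; adjusted p = 0.00130 by limma with Benjamini-Hochberg correction, 3 of 3 genotypes higher), with 0.52 in MyD88 KO, 0.74 in TRIF KO and 1.51 in wild type. P2ry6 and P2ry14, receptors of extracellular nucleotides and nucleotide sugars, fell by 0.47 and 0.32. Ffar2, a receptor of short-chain fatty acids, was at -0.01, 0.18 and 0.34. Without an array of wild type at 0 or 4 h P2ry6 was not called, and P2ry14 was not called without the 0 h array of either knockout or the 4 h array of TRIF KO.

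Of 19 other chemoattractant and lipid mediator receptors, 2 rose and 6 fell at 4 h, with a median of 0.01, and 1 rose at 1 h. After centring, 2 rose and 4 fell at 4 h. Ccrl2, a chemerin-binding receptor, rose at 1 h by 1.01 ± 0.12 (SE; adjusted p = 0.00209 by limma with Benjamini-Hochberg correction, 3 of 3 genotypes higher) and at 4 h by 1.19 (adjusted p = 6.67e-05), the 1 h call being lost without the wild-type 1 h array. It was lower in MyD88 KO, at -0.93 (adjusted p = 0.000690 by limma with Benjamini-Hochberg correction, 3 of 3 times lower), and stood at -0.64 at 0 h. Ccr2, the receptor of monocyte-attracting chemokines, fell at 4 h by 0.92 (adjusted p = 1.12e-05 by limma with Benjamini-Hochberg correction, 3 of 3 genotypes lower) and was higher in MyD88 KO by 0.57 and in TRIF KO by 0.52 on average over the times. Cxcr4 fell by 0.82, with -0.25 in MyD88 KO, -0.70 in TRIF KO and -1.51 in wild type. Gpr132 was at 0.01, 0.21 and 0.63 and was not called. Ptgir, the prostacyclin receptor and the other gene that rose, was added after its values were seen and rose by 0.58.

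Of 24 genes of Gi signalling, arrestins and receptor kinases, 1 rose and 4 fell at 4 h, with a median of -0.02. Rgs2, Rgs1 and Rgs18, which speed the shut-off of G proteins, fell by 1.24, 0.76 and 0.76 on average over the genotypes. Their differences were -0.44, -0.33 and -0.39 in MyD88 KO cells, -1.10, -0.51 and -0.49 in TRIF KO and -2.17, -1.45 and -1.40 in wild type. Rgs10, the other gene that fell and named after its values were seen, fell by 0.34. Rgs1 was not called without the unstimulated wild-type array. Pik3cg, the lipid kinase that G protein beta-gamma subunits activate, rose by 0.30 (adjusted p = 0.0246 by limma with Benjamini-Hochberg correction, 3 of 3 genotypes higher), a call lost without any of 4 arrays, the 0 and 4 h arrays of TRIF KO and of wild type. Of 6 NADPH oxidase genes, the burst enzyme that these receptors trigger, 1 rose. It was Cybb, the catalytic subunit, by 0.75 ± 0.10 (SE; adjusted p = 0.000305 by limma with Benjamini-Hochberg correction, 3 of 3 genotypes higher), with 0.39 in MyD88 KO, 0.87 in TRIF KO and 0.98 in wild type. Rac1, Ncf1 and Rac2 were between -0.15 and 0.14.

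Some genes of these lists that limma called between the genotypes fall outside the rule for named genes and were chosen after their values were seen. Gnb1, a G protein beta subunit, was higher by 1.11 in MyD88 KO and by 1.34 in TRIF KO on average over the times. Arrb1, an arrestin, was higher by 0.42 in MyD88 KO, and Rgs10 was higher by 0.34 in MyD88 KO and by 0.43 in TRIF KO. Of these Gi signalling genes, 3 were called higher in MyD88 KO, or 2 after centring. P2ry12, a nucleotide receptor, was higher by 0.27 in MyD88 KO, a call lost after centring. Of the 19 other chemoattractant receptors, 4 were higher and 2 lower in MyD88 KO, and 4 were higher in TRIF KO, or 1 after centring. Ncf4, a cytosolic oxidase subunit, stood at -0.44 and -0.65. Vsig4, a macrophage receptor of C3b, stood at -0.48 in MyD88 KO, and C1qa, a chain of C1q, was higher by 0.33 in TRIF KO. Of the 12 reference transcripts, none was called at 4 h by limma, with 0 higher and 2 lower at an unadjusted p under 0.05, and Gapdh was called higher in MyD88 KO, by 0.24, a call lost after centring.

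**Figure D4:**
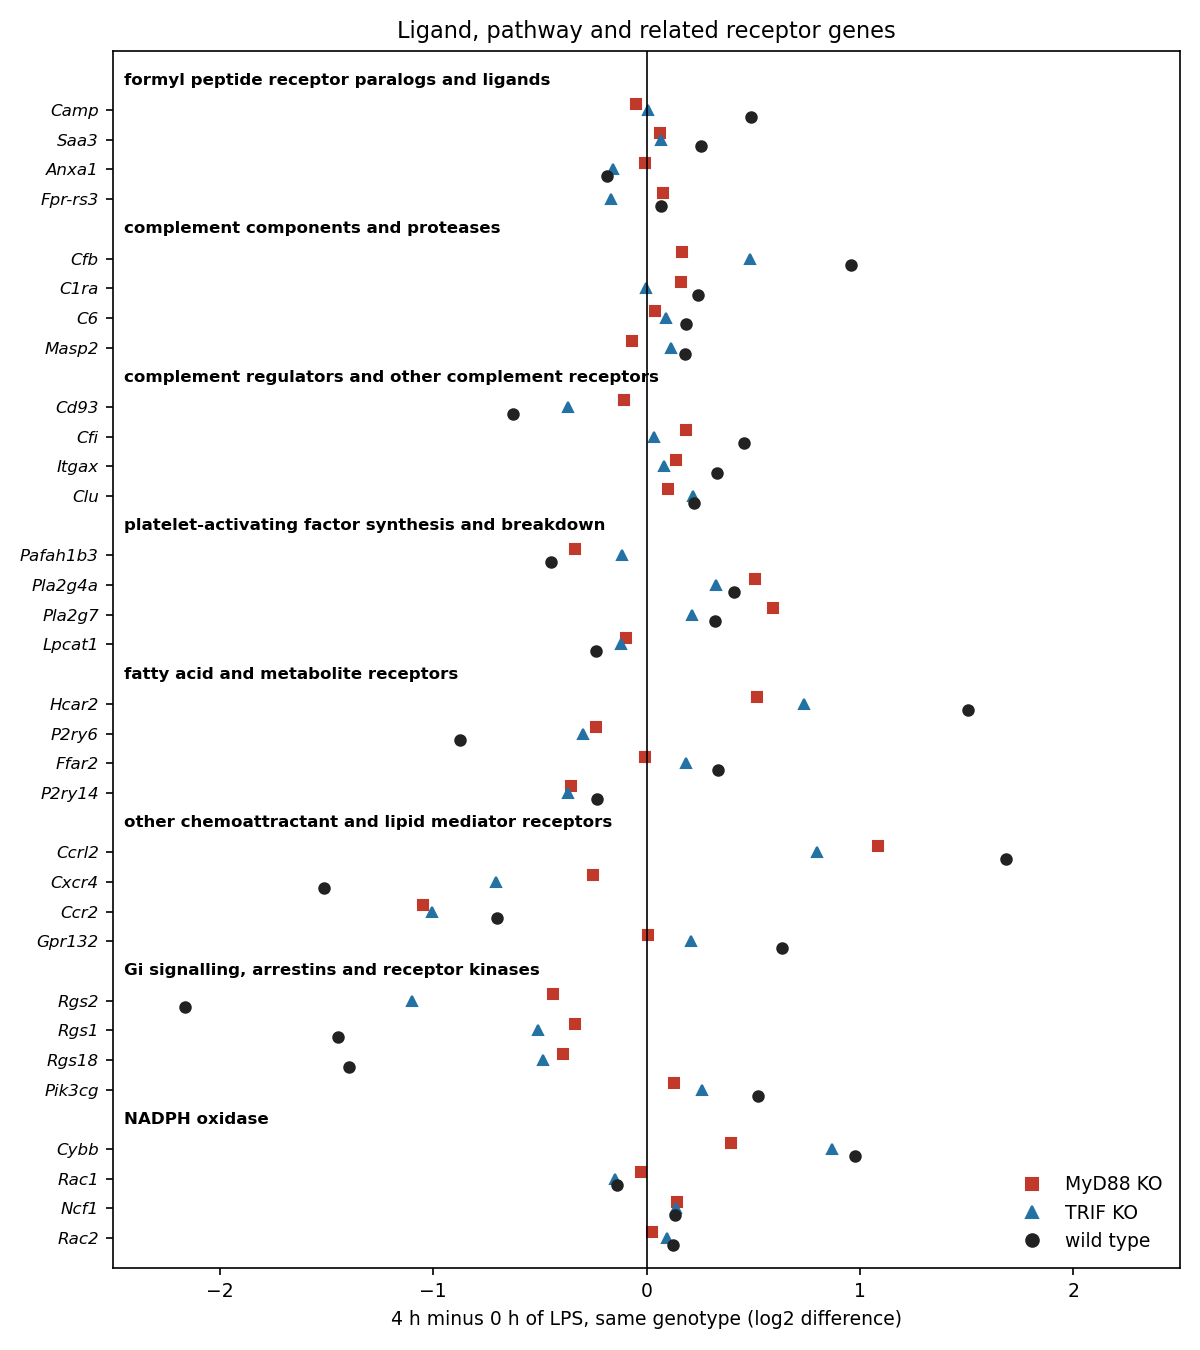
Log2 difference between 4 h and 0 h of LPS in MyD88 KO (red squares), TRIF KO (blue triangles) and wild type (black circles), 1 array per group and time, for up to 4 genes of each list with the largest wild-type differences. Hcar2, Ccrl2, Cybb and Cfb lie to the right of 0 in all 3 genotypes, and Rgs2, Rgs1, Rgs18 and Ccr2 to the left.

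Several receptors are also known from neutrophils and other leukocytes, so markers of other cells were read beside them. The summed level of 13 neutrophil markers (of 16 listed) was 11.19 to 11.33 (log2) in MyD88 KO, 11.39 to 11.54 in TRIF KO and 11.36 to 11.48 in wild type. MyD88 KO was thus lowest here too, as for Fpr2 and Gpr84, by a smaller amount in the sum. Single markers went both ways. Lcn2 differed by more than the sum, at 5.14, 5.23 and 5.09 at 0, 1 and 4 h in MyD88 KO cells. It read 5.73, 5.84 and 5.76 in TRIF KO and 6.28, 6.43 and 6.77 in wild type, so it was below log2 = 6 in both knockouts. At 0 h Ngp (6.74 against 6.48), Ltf, Camp, Elane and Mpo read higher in MyD88 KO than in wild type, and the other measured markers lower. S100a9 stayed below log2 = 6 on every array, and Mmp8 was the most abundant. The 6 measured eosinophil markers (of 8) summed to 9.52 to 9.63 in MyD88 KO, 9.78 to 9.94 in TRIF KO and 9.43 to 9.56 in wild type, highest in TRIF KO as C5ar1 was. That sum was led by Alox15, which peritoneal macrophages also express, while Prg2, Siglecf and Il5ra stayed below 6. The 9 fibroblast or mesothelium markers summed to 10.12 to 10.21, 10.003 to 10.22 and 9.71 to 9.78, and the 7 B cell markers (of 9) to 9.92 to 10.13, 9.88 to 9.98 and 10.04 to 10.27. The 7 T or NK cell (of 10), 8 mast cell and 6 dendritic cell markers (of 8) had overlapping ranges in the 3 genotypes. The part of other cells in the receptor values was not tested, and in whole-culture RNA fewer cells of a type cannot be told apart from less RNA per cell.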

How the data were processed

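Total RNA from 9 groups was measured on 1 Affymetrix array each, with 22690 probe sets. The authors deposited log2 values, 1 per probe set and array. RMA is the method that the submitters' processing notes name. Its software version, and whether it was run on all arrays at once, were not given in the sources used here. Array medians lay between 7.01 and 7.07, and the values were used as deposited.

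Probe sets were named from the platform annotation, and their symbols were brought up to date by identifier with RefSeq (assembly GRCm38.p6), where 20364 matched. A single gene was given for 20393 probe sets and several for 691, while 1606 were not listed. Only the first kind named a gene. Promoter sequences, one for each of the 6 receptor genes, are from RefSeq, build GRCm38.p6.

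Gene lists were tested with limma 3.58.1 (R 4.3.3; lmFit and eBayes, additive fit of genotype and time, 4 residual and 8.39 prior degrees of freedom, two-sided, Benjamini-Hochberg adjusted p under 0.05). The fit was also run on simulated data with additive effects and independent noise. These held no difference of response between genotypes and no shift of a whole array, so they check the calculation only. Named list genes are up to 4 with the largest wild-type 4 h difference. The receptors, lists and tests were chosen with earlier results of these data known.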

Additional observations from a re-analysis of the deposited data

Results flagged for a closer look

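Lpcat1, an acyltransferase of the platelet-activating factor list, moved in opposite directions at 1 h of LPS, by 0.0649 in TRIF KO and by -0.06 in wild type. Both steps were smaller than the median size over all genes, 0.075 in TRIF KO and 0.122 in wild type. In wild type the reference transcripts lay at 0.0238 at 0 h and -0.0552 at 1 h, so centring on them turns the wild-type step positive. Both steps exceeded the spread of a difference of 2 arrays taken from the residual SD of this gene alone. That SD has 4 degrees of freedom and can be low by chance, and the difference between the genotypes was not tested. None of the 5 receptors measured showed such opposite steps.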

How the results depend on the processing

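No paired analysis was possible because each group has 1 array and the labels give no replicate numbers. Of 50 differences of the 5 receptors, 49 moved by less than the residual SD of their gene when arrays were centred on the reference transcripts. The exception was Ptafr in wild type at 1 h, at 0.10. Raising low values to log2 = 6 could change none of the 50, because the probe sets that stand for the receptors read at least 6.83 on every array. Averaging the probe sets of C3ar1 and Ptafr moved 6 of 20 differences by more than the residual SD. With the second probe set alone this held for 1 of 10 for C3ar1 and 6 of 10 for Ptafr. The differences of at least 2-fold were those of Fpr2 and Gpr84, which have a single probe set each. Centring shifted none of the 50 differences by more than 0.08. It lowered MyD88 KO against wild type at 1 h, which is not among the 50, by 0.11. These settings could thus not change the sign of a difference of at least 2-fold.

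The counts of genes called by limma, 29 (1 h), 1178 (4 h), 726 (MyD88 KO) and 160 (TRIF KO), were within 1.5 times under no filter, a mean of at least log2 = 7, averaged probe sets and an intensity trend. Without the other factor as block they were 1, 308, 95 and 66, and centring left 19 at 1 h. With 1 array left out in turn they ranged from 7 (wild type, 1 h) to 44 at 1 h, from 555 (wild type, 4 h) to 1258 at 4 h, from 363 (MyD88 KO, 4 h) to 906 for MyD88 KO and from 68 (TRIF KO, 1 h) to 243 for TRIF KO. The cause was not tested. Ptafr, and Fpr2 in MyD88 KO at 0 and 1 h, lie near or below the array medians, and 1 array per group limits every receptor value.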
